A study of Mus musculus with 4 samples.

Results

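Islet identity transcription factors are the DNA-binding proteins that hold endocrine cells of the pancreas in their differentiated state, and 8 of them were followed here: Pdx1, Mafa, Nkx6-1, Nkx2-2, Neurod1, Pax6, Isl1 and Foxa2. Members were chosen by name and found by matching the identifier of every gene probe to these symbols, which gave 13 of the 56605 gene probes (8 of 22916 genes named on the array). RNA of mouse islet cells was measured on 4 single-channel Agilent arrays labeled with Cy3. Both groups came from C57BL/6 mice, labeled male, that were 60 weeks old and littermates, and their islets were handpicked and dispersed to single cells before treatment. Cells of 2 arrays received a scrambled peptide (replicates 1 and 2), the control, and cells of 2 arrays received MOTS-c (replicates 2 and 3), a peptide encoded in the mitochondrial 12S rRNA gene, both at 10 μM for 24 h. The comparison asks whether RNA of the identity factors differed between MOTS-c and scrambled peptide in aged islet cells. The sources used here do not state whether each array held the cells of a single animal.

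These factors work as a network in which each binds regulatory DNA of hormone genes and of other members. Pdx1, Mafa and Nkx6-1 are enriched in β-cells within the islet, whereas Nkx2-2, Neurod1, Pax6, Isl1 and Foxa2 are also used by α-cells and other endocrine cells. Pdx1, Nkx6-1, Nkx2-2, Pax6 and Isl1 hold a homeodomain, Neurod1 is a basic helix-loop-helix factor that pairs with E proteins on E-boxes, Mafa is a basic leucine zipper factor and Foxa2 is a forkhead factor that can bind closed chromatin. Loss of several of these factors in mature β-cells is known to lower insulin production and to let genes of other cell types appear.

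Since members are known to bind each other's regulatory DNA, the stretch before the transcription start was searched for the short letter patterns of 4 DNA-binding families. RefSeq windows of 250 bases (build GRCm38.p6) were found for 7 of the 8 genes, 10 windows in all, and Mafa had no entry. Searched on both strands were TAAT (the homeodomain core), CANNTG (the E-box, where N is any base), TGTTTAC (a forkhead pattern) and TGCTGAC (the core of a Maf site). Shown are the first windows of Pdx1 and Pax6, whose brightest probes read lower with MOTS-c. The windows of Nkx6-1 and Nkx2-2 follow, whose brightest probes read higher. The groups overlapped for the second Nkx2-2 probe and the other Pax6 probes, and those of Nkx6-1 were only 0.004 apart in log2 units. Each window runs from 5′ to 3′ on the strand of the gene with matches in capitals.
Pdx1, chr5:147269847-147270096, plus strand: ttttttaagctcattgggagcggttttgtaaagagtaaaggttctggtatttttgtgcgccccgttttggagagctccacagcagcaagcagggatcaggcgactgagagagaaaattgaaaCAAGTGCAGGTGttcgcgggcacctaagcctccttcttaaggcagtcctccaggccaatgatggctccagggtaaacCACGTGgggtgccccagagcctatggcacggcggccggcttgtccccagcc
Pax6, chr2:105668646-105668895, plus strand: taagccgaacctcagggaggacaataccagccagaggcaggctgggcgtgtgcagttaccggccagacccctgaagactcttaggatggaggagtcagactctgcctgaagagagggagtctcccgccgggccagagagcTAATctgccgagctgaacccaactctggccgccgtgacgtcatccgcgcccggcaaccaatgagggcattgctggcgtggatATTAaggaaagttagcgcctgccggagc
Nkx6-1, chr5:101664712-101664961, minus strand: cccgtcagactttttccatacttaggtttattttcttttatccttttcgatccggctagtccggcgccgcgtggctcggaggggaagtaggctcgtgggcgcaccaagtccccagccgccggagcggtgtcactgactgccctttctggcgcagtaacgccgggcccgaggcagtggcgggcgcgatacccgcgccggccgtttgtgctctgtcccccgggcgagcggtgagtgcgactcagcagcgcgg
Nkx2-2, chr2:147186403-147186652, minus strand: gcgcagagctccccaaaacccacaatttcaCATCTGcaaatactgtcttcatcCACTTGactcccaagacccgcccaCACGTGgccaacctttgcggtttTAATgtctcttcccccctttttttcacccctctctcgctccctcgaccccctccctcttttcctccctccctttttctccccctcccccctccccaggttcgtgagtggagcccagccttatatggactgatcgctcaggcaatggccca
The capitals in the Pdx1 window are 3 E-boxes, the first pair adjoining. The capitals in the Pax6 window are 2 homeodomain cores, 1 of them read on the opposite strand. The Nkx6-1 window holds no match to any of the 4 patterns, and the Nkx2-2 window holds 3 E-boxes and 1 homeodomain core. Over the 10 windows, the homeodomain core occurred in 6 against 54.9% of all 32841 promoter windows of this length, and the E-box in 6 against 66.2%. Pax6 and Foxa2 had more than 1 window each, and by gene the homeodomain core occurred in 4 of 7 and the E-box in 6 of 7. The Maf site core occurred in 1 window, of Foxa2, against 3.81% of all windows, and the forkhead pattern in 0 against 3.17%. A match describes letters in a window and was not tied to any measurement here.

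Spots well above background were most frequent on MOTS-c replicate 3 (65.0% of gene spots, against 61.6% to 62.9% on the others). The arrays matched their label as islet cells in hormone RNA, which does not show what other cells were present. The endocrine hormones Ins1, Ins2, Gcg and Sst were well above background on all 4 arrays, and Ppy, the hormone of PP cells, on 3. An exception among defining markers was Ucn3, a marker of mature β-cells, which was well above background on 0 arrays. The labeled sex was not borne out: Y-linked probes (7 of Ddx3y, Eif2s3y, Kdm5d and Uty) had no signal well above background on any array, whereas Xist, expressed from the inactive X chromosome, had it on 4. Of the marker lists for other cells, 4 of 10 acinar genes passed the background filter, with summed signals of 3663 and 4010 for scrambled peptide and 2590 and 2093 for MOTS-c. Most of that sum was Cela1, with a log2 fold change of -0.76, and Ctrb1 had 0.33, Cela2a -0.42 and Cel -0.14. Of the Schwann and neural markers 3 of 6 passed, with sums of 7592 and 7448 against 5663 and 3896, and of the mesenchymal markers 3 of 8, with sums of 5622 and 5126 against 4845 and 4823. Within the Schwann list Ngfr had a log2 fold change of -0.70 (-0.99 to -0.41 over the alternatives) and Gfap of 0.48. Most of the mesenchymal sum was Acta2, with a log2 fold change of -0.14. The dim Pdgfra had -1.05, which was -0.40 with normexp, and Col1a2 had -0.30. Immune markers (4 of 8), endothelial markers (3 of 8) and duct markers (4 of 8) had sums that overlapped between the groups. Summed δ-cell signal, nearly all of it Sst, was 153638 and 224966 with scrambled peptide and 154167 and 152373 with MOTS-c. Cell cycle genes (10 of 10 well above background on all 4 arrays) summed to 208799 and 182539 against 184733 and 221326. These sums were larger than those of the 8 identity factors, 116618 and 108332 against 102959 and 122744. Mean log2 signals of the cell cycle genes ran from 11.64 for Bub1 to 16.28 for Birc5, and Isl1, the brightest identity factor, had 15.12. Whether such bright cell cycle signal came from endocrine cells or from other cells was not tested. Whether any of these lists had a part in the values of the identity factors was not tested, and in such mixed cells fewer cells of a type cannot be told apart from less RNA per cell.

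All 13 member probes exceeded their background clearly on each of the 4 arrays, so each gene had a measured level in both groups. None of them passed the test for a difference between MOTS-c and scrambled peptide. With limma and Benjamini-Hochberg adjustment over the 35087 probes kept, 0 of 13 had an adjusted p under 0.05, where 0.00% of all kept probes did, and the adjusted p of the members lay between 0.694 and 0.998. At an unadjusted p under 0.05 the members again numbered 0 of 13, against 7.85% of all kept probes, and the smallest unadjusted p was 0.086. Among the members the methods' t-test also called 0 after adjustment and had 1 at an unadjusted p under 0.05, for Mafa. Over the 35087 probes kept, that test called 1 after adjustment and had 2312 at an unadjusted p under 0.05. Log2 fold changes of the members, taken as MOTS-c minus scrambled, ran from -0.28 for Pdx1 to 0.29 for Neurod1. The smallest two-sided p of an exact permutation test with 2 arrays per group is 0.333, and p-values measure the spread between these arrays.

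**Figure D1:**
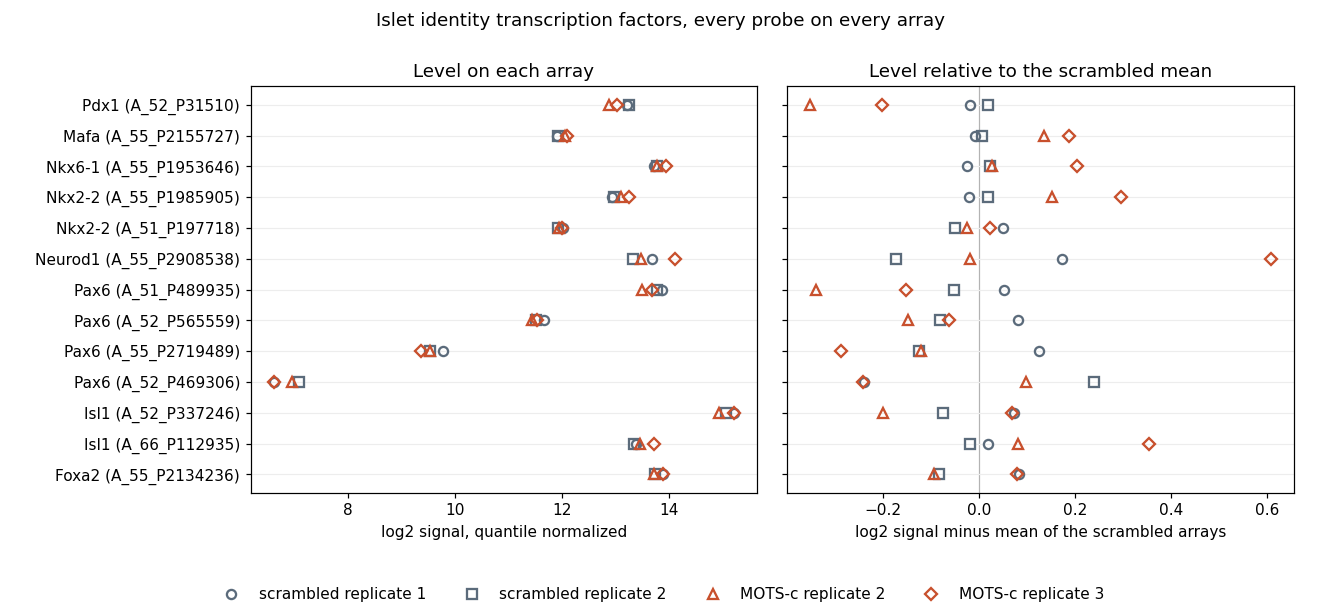
Log2 quantile normalized signal of the 13 probes of the 8 identity factors on each of the 4 arrays (left), and the same values minus the mean of the scrambled arrays of that probe (right). Blue-gray circles and squares are scrambled replicates 1 and 2, and orange triangles and diamonds are MOTS-c replicates 2 and 3. The MOTS-c symbols of Pdx1 lie left of both scrambled symbols, those of Mafa lie right of them, and those of Neurod1 lie farthest apart.

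Pdx1, the homeodomain factor needed to form the pancreas and to transcribe insulin in β-cells, had log2 signals of 13.22 and 13.25 with scrambled peptide and 12.88 and 13.03 with MOTS-c. The MOTS-c arrays were the lower pair, and the gap of 0.18 between the groups was wider than the distance between the arrays within either group. In linear units the signals were 9517 and 9763 against 7560 and 8377, a signal 17.4% lower with MOTS-c when taken from the means of the log2 values. Its log2 fold change was -0.28 (SE 0.13, 95% interval -0.61 to 0.06), the lowest of the 13 probes, with an adjusted p of 0.694 in limma.

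Mafa, the basic leucine zipper activator of insulin that appears late in β-cell maturation, had log2 signals of 11.91 and 11.92 with scrambled peptide and 12.05 and 12.10 with MOTS-c. The scrambled arrays were nearly equal, the MOTS-c arrays were close to each other, and the groups did not overlap. The log2 fold change was 0.16 (SE 0.12, 95% interval -0.15 to 0.47, limma adjusted p = 0.794), which is a signal 11.8% higher with MOTS-c. Pdx1 and Mafa, partners on the insulin promoter, lay on opposite sides of the scrambled arrays.

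Nkx6-1, a homeodomain repressor that keeps α-cell genes silent in β-cells, had log2 signals of 13.73 and 13.78 against 13.78 and 13.96. The groups did not overlap, but MOTS-c replicate 2 was only 0.004 above scrambled replicate 2, and MOTS-c replicate 3 was the highest array. The log2 fold change was 0.12 (SE 0.13, 95% interval -0.23 to 0.46, limma adjusted p = 0.869) and was 0.03 without MOTS-c replicate 3.

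Nkx2-2, a homeodomain factor of β- and α-cells that also represses genes of other endocrine types, had 2 probes that gave unlike values. Its brighter probe, A_55_P1985905, read 12.94 and 12.98 against 13.11 and 13.26 in log2 units, with both MOTS-c arrays above. Its log2 fold change was 0.22 (95% interval -0.11 to 0.56, limma adjusted p = 0.741). The other probe, A_51_P197718, had linear signals of 4185 and 3907 against 3974 and 4107, with the MOTS-c arrays between the scrambled arrays, and its adjusted p was 0.998. The fold changes of the pair differed by 0.23 on the log2 scale, with no overlap of the groups and an exact permutation p of 0.333, the smallest that 2 against 2 arrays allow.

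Neurod1, which pairs with E proteins on the E-boxes of the insulin gene, had log2 signals of 13.68 and 13.34 with scrambled peptide and 13.49 and 14.12 with MOTS-c. MOTS-c replicate 3 was the highest of the 4 arrays and MOTS-c replicate 2 lay between the scrambled arrays, so the groups overlapped. The MOTS-c arrays were 0.63 apart, the widest distance within a group among the 13 probes, and the scrambled arrays 0.35. The log2 fold change of 0.29 (SE 0.26, 95% interval -0.40 to 0.98, limma adjusted p = 0.833) was the highest among the members and was -0.02 without MOTS-c replicate 3 and 0.61 without MOTS-c replicate 2. The latter setting gave an unadjusted p of 0.046 and an adjusted p of 0.376, and over all settings the adjusted p of Neurod1 ran from 0.376 to 1.

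Pax6, a paired-domain and homeodomain activator of the insulin and glucagon genes, was read by 4 probes, each with a negative log2 fold change. The brightest, A_51_P489935, had log2 signals of 13.88 and 13.78 against 13.49 and 13.68. Both MOTS-c values were below the scrambled ones, a log2 fold change of -0.25 (SE 0.14, 95% interval -0.60 to 0.11, limma adjusted p = 0.739) or a signal 15.6% lower. The groups overlapped for the other 3 probes. A_52_P565559 read 11.67 and 11.51 against 11.44 and 11.53, a log2 fold change of -0.10. A_55_P2719489 read 9.78 and 9.53 against 9.54 and 9.37, a log2 fold change of -0.20. For A_52_P469306, the dimmest, the values were 6.61 and 7.09 against 6.95 and 6.61, where a scrambled and a MOTS-c array were level at the low end. The 4 probes share their samples and their gene and are not 4 separate observations.

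Isl1, a LIM-homeodomain factor that acts with the cofactor Ldb1, had a pair of probes with changes of opposite sign. The brighter, A_52_P337246, read 15.22 and 15.07 against 14.95 and 15.22, so that the higher arrays of both groups were level and MOTS-c replicate 2 was the lowest. Its log2 fold change was -0.07 (95% interval -0.47 to 0.34, limma adjusted p = 0.947). The other, A_66_P112935, read 13.40 and 13.36 against 13.46 and 13.73, with both MOTS-c arrays above and a log2 fold change of 0.22 (95% interval -0.17 to 0.61, limma adjusted p = 0.779). The fold changes differed by 0.28 on the log2 scale without overlap of the groups (exact permutation p = 0.333, the smallest possible). Among the 5 pairs formed by a brightest probe and another probe of its gene, 3 differed without overlap of the groups. These were the pairs of Nkx2-2 and Isl1 and a pair of Pax6, and no direction is given for Nkx2-2 or Isl1 as a gene. The share of such pairs over all genes was not computed. Of all kept probes taken singly, 38.0% had groups without overlap.

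Foxa2, the forkhead factor that opens chromatin in endoderm and acts upstream of Pdx1, had log2 signals of 13.90 and 13.74 with scrambled peptide and 13.73 and 13.90 with MOTS-c. The arrays formed a high and a low pair, each with 1 array of either group. The log2 fold change was -0.01 (SE 0.14, 95% interval -0.38 to 0.36, limma adjusted p = 0.996).

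Across the 8 genes by their brightest probes, Mafa, Nkx6-1 and Nkx2-2 lay higher with MOTS-c without overlap of the groups, Pdx1 and Pax6 lay lower, and Neurod1, Isl1 and Foxa2 overlapped. Over the 13 probes 6 had groups without overlap, 4 higher and 2 lower with MOTS-c, where 38.0% of all kept probes did, 19.4% higher and 18.6% lower. The median log2 fold change of the 8 genes was 0.05 (4 positive, 4 negative), against 0.01 over all kept probes. Their median absolute log2 fold change was 0.19, and that of the 13 member probes was 0.16. Over all kept probes it was 0.14, and over those in the top part of the signal range, above the 75th percentile, it was 0.09. The 95% intervals of all 13 probes held 0 and lay within 2-fold either way, and those of Mafa, Nkx6-1, Nkx2-2, Isl1 and Foxa2 by their brightest probes lay within 1.5-fold.

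**Figure D2:**
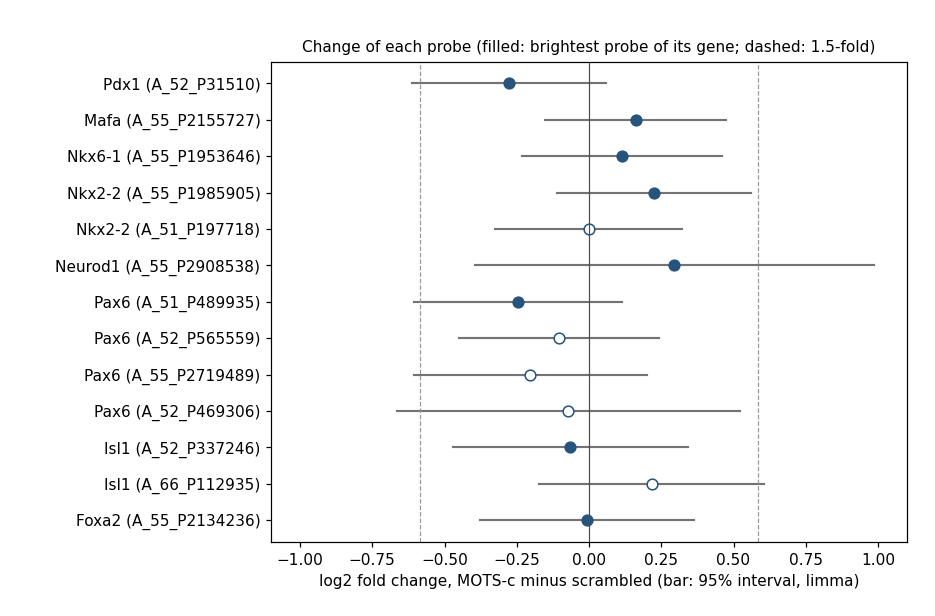
Log2 fold change (MOTS-c minus scrambled) of each member probe with its 95% interval from limma (bars), filled for the brightest probe of a gene and open for its other probes, with dashed lines at 1.5-fold. Each of the 13 intervals crosses 0, and the interval of Neurod1 is the widest.

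Single arrays set several of these values. MOTS-c replicate 3 was the highest array for the brightest probes of 4 genes, Mafa, Nkx6-1, Nkx2-2 and Neurod1. The median over the 8 genes, 0.05, was -0.06 without MOTS-c replicate 3. Isl1 and Foxa2 by their brightest probes turned positive without MOTS-c replicate 2, at 0.07 and 0.08. They also did so without scrambled replicate 1, at 0.009 and 0.076. Pdx1 kept a log2 fold change between -0.35 and -0.20 and Pax6 between -0.34 and -0.15 whichever array was left out, though groups without overlap can take no other sign.

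**Figure D3:**
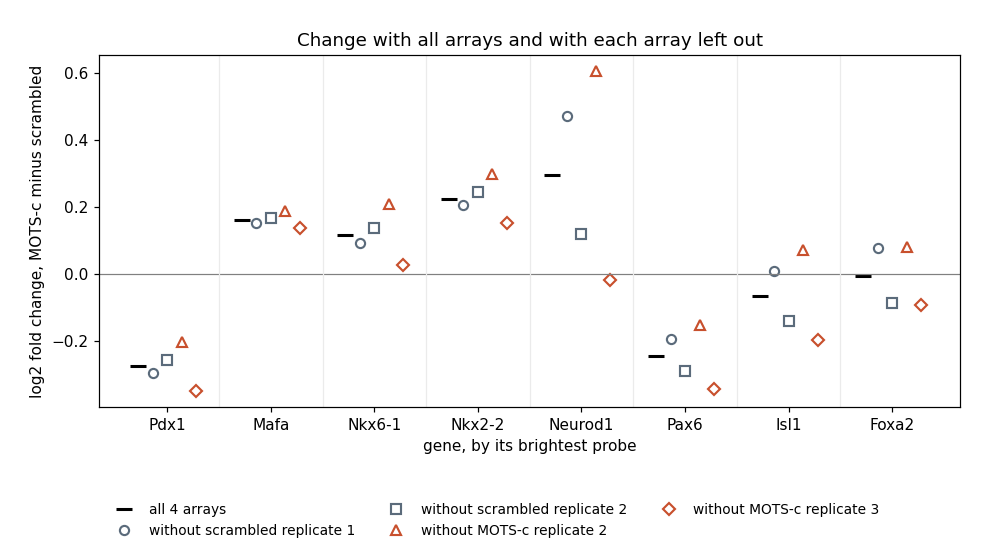
Log2 fold change (MOTS-c minus scrambled) of the brightest probe of each identity factor with all 4 arrays (black bars) and with each array left out (symbols). For Neurod1 the values run from -0.02 to 0.61, and those of Isl1 and Foxa2 lie on both sides of 0.

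To compare the shapes over the arrays, each gene was centered on its own mean and genes were set against each other by the root mean square difference of their log2 values over the 4 arrays. Among the 28 pairs of members, Isl1 and Foxa2 were closest at 0.05, followed by Mafa with Nkx2-2 and Mafa with Nkx6-1, also 0.05. Pdx1 and Pax6 were close to each other, with the same order of arrays except that scrambled replicates 1 and 2 were exchanged. Pdx1 and Neurod1 were farthest apart, at 0.36. Of 52 regulator, cofactor and target genes, Insm1, a zinc finger factor of endocrine differentiation, was nearest to Pax6 at 0.01 (log2 signals of 15.88, 15.76, 15.51 and 15.68 in the order of the arrays above). The nearest to Mafa was Iapp, the islet amyloid peptide, and the nearest to both Nkx6-1 and Nkx2-2 was Tshz1, a zinc finger factor. Etv1 was nearest to Neurod1, Npy to Isl1 and the histone acetyltransferase gene Crebbp to Foxa2. These distances rest on 4 arrays that all genes share and describe likeness of shape alone.

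Of 35 other transcription factors of endocrine pancreas, 25 passed the background filter, and 0 of 25 had an adjusted p under 0.05 in limma. The median log2 fold change was -0.07, with 11 positive and 14 negative. At an unadjusted p under 0.05 and at least 1.5-fold there were 2 higher, among them Irx2, and 2 lower, Pax4 and Fev. Of all kept probes 3.53% met both. The list was chosen with earlier results of these data known, so this count beside that share is not a test. Pax4, the paired factor that favors β- over α-cell fate, had log2 signals of 10.55 and 10.05 with scrambled peptide and 8.77 and 8.66 with MOTS-c, well separated groups, and a log2 fold change of -1.59 (SE 0.20, limma adjusted p = 0.474). Irx2 is also on the α-cell marker list, of which 5 of 8 genes passed the filter with summed signals of 119370 and 111737 against 103089 and 111939, and the part of α-cells in its value was not tested. Irx2, an α-cell homeodomain factor, had a log2 fold change of 0.68 and Fev, a factor of serotonergic neurons and endocrine progenitors, of -0.90. With the normexp background correction these were 0.14 and -0.15, and that of Pax4 was -1.45. Bach2 and St18 had the smallest changes, 0.01 and -0.04. Neurog3, Foxa1, Sox9 and Ptf1a were among the 10 that did not pass the filter.

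The closest relatives of the members repeat some of these genes. Of 12 paralogs, 7 passed the filter, with a median log2 fold change of -0.22 (2 positive, 5 negative). Pax4, the relative of Pax6, has been given, and Foxa3, the relative of Foxa2, also met the unadjusted p and the fold, with a log2 fold change of -0.66 that was -0.14 with normexp. Isl2 and Nkx6-2 had the smallest changes, -0.11 and -0.22.

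Among 12 binding partners and cofactors, all of which passed the filter, Lmo4 and Ldb2 met the unadjusted p and the fold. Lmo4 is a LIM-only protein that competes for Ldb proteins, and Ldb2 is a relative of Ldb1, the partner of Isl1. Lmo4 had log2 signals of 5.11 and 5.13 with scrambled peptide and 6.46 and 6.47 with MOTS-c, so that arrays of a group were nearly equal and the groups lay far apart. The log2 fold change was 1.34 (SE 0.12, limma adjusted p = 0.474) and was 0.58 with normexp. Ldb2 had 8.53 and 8.60 against 7.44 and 7.84, a log2 fold change of -0.93 (SE 0.18, limma adjusted p = 0.474). The median of the list was -0.06 (4 positive, 8 negative), and Crebbp was among the smallest changes, at 0.02.

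β-cell genes known as targets of the members had 16 of 17 genes above the filter, 0 with an adjusted p under 0.05, and a median log2 fold change of -0.17, with 2 positive and 14 negative. Groups did not overlap for 9 genes that lay lower and 1 that lay higher with MOTS-c, against 18.6% and 19.4% of all kept probes. This list was chosen with earlier results of these data known, so its counts beside such shares are a description and not a test. Kcnj11, a subunit of the ATP-sensitive potassium channel, had a log2 fold change of -0.71 (-0.34 by its second probe) and Glp1r, the GLP-1 receptor, of -0.64. Slc2a2, the glucose transporter GLUT2, had dim signals of 5.23 and 5.26 against 3.81 and 4.02, was well above background on only 1 of the MOTS-c arrays, and had a log2 fold change of -1.33 that was -0.39 with normexp. A total of 4 genes of the list met the unadjusted p and the fold, each lower with MOTS-c, where 3.53% of all kept probes met them and 852 of those 1239 were lower. Nnat and Ins1 had the smallest changes, -0.03 and -0.04.

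**Figure D4:**
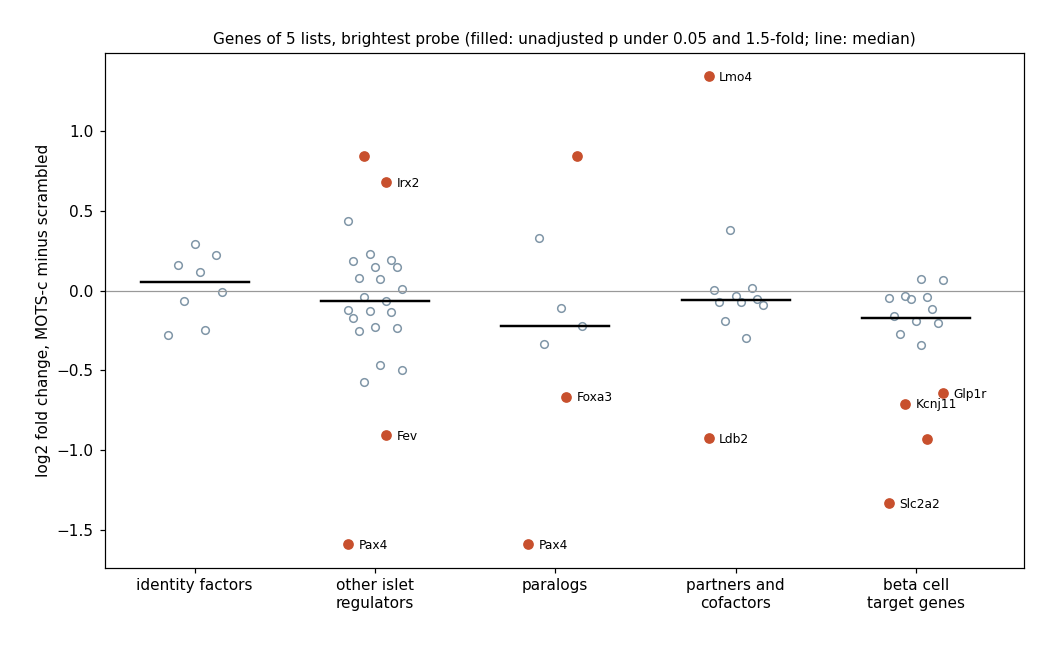
Log2 fold change (MOTS-c minus scrambled) of the genes of 5 lists, each by its brightest probe above the background filter. Lines are list medians, and filled points, some of them labeled, are genes at an unadjusted p under 0.05 and at least 1.5-fold. None of the identity factors is filled, and the 4 filled target genes lie below 0.

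Of the hormone genes that the factors activate, Ins1 had log2 signals of 18.13 and 18.13 against 18.10 and 18.09, and Ins2 had 18.54 and 18.64 against 18.54 and 18.54. Their ranks among all kept probes were between 1 and 6 on every array, and quantile normalization sets the value of such bright probes by rank. Gcg, transcribed with the help of Pax6 in α-cells, had 15.56 and 15.61 against 15.66 and 15.72 (log2 fold change 0.11), and Ppy, which was dim and not well above background on scrambled replicate 1, had overlapping groups and a log2 fold change of 0.32 that ran from -0.05 to 0.68 over the alternatives. Sst, a target of Pdx1 in δ-cells, had 17.17 and 17.72 against 17.17 and 17.16, where scrambled replicate 2 alone stood high. Casr, the calcium-sensing receptor and a δ-cell marker, was well above background on both scrambled arrays and 0 MOTS-c arrays. In the main processing it was at least 2.80-fold lower with MOTS-c. That bound takes the higher of its own signal and the lowest signal well above background on each array. It did not hold with normexp, where the log2 fold change of Casr was -0.58. Casr passed the filter only through the scrambled arrays, which favors a lower value with MOTS-c, so no p is given. Of the 7 δ-cell markers kept, 2 had positive log2 fold changes, the dim Hhex with 0.44 and Ghsr with 0.04, and 5 had negative ones, Casr among them.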

How the data were processed

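RNA of islet cells given scrambled peptide or MOTS-c was measured on 4 Agilent arrays of 1 slide, and groups and replicate numbers came from the sample labels. The authors deposited the processed intensity of each spot from Feature Extraction, with the background subtracted array by array and with no normalization across arrays. A second deposited table held the same intensity values rounded.

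Control spots (3671 per array) and outlier spots were dropped, log2 values were taken and replicate spots were averaged. A probe entered if 2 or more arrays of any group read it well above background, which left 35087, and these were quantile normalized. The study filters on a flag that it does not define, and this rule stands in for it. MOTS-c was compared with scrambled peptide in limma 3.58.1 (R 4.3.3), with Benjamini-Hochberg adjustment over all kept probes, 2 residual degrees of freedom and 2.64 added from the other probes. The steps were tested on simulated data.

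All 8 members are given with every probe. Of the other lists, genes at an unadjusted p under 0.05 and at least 1.5-fold are named, with the 2 smallest changes of each of the regulator, paralog, cofactor and target lists, the hormone genes, the sex-linked genes and the nearest gene of each member. Some genes under this rule are left out of the text. A gene was followed through its brightest kept probe. Members and lists were chosen with earlier results of these data known. Probes were named through RefSeq accessions of GRCm38.p6. The arrays are annotated on another build, so only the promoter windows have coordinates.

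The alternatives were a shift to the 75th percentile, normexp with an offset of 50, the rounded intensities, keeping dim probes, a filter on all 4 arrays, limma with an intensity trend, the methods' t-test, the mean over the probes of a gene and each array left out. The number of arrays limits the precision.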

Additional observations from a re-analysis of the deposited data

How the results depend on the processing

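The count of member probes at an adjusted p under 0.05 was 0 under every alternative run. Of the 13 member probes, 8 kept the direction of their change throughout. Among these are the 6 whose groups did not overlap, for which leaving out an array could hardly turn the sign. The trend and the methods' t-test use the values of the main fit and cannot turn a sign. Foxa2 turned to 0.039 with normexp and ran from -0.094 to 0.082 over the arrays left out. The other probes that turned did so when an array was left out, with log2 fold changes from -0.20 to 0.070 for Isl1 (A_52_P337246), from -0.019 to 0.61 for Neurod1, from -0.051 to 0.049 for Nkx2-2 (A_51_P197718) and from -0.31 to 0.17 for Pax6 (A_52_P469306). The median over the 8 genes ran from -0.056 to 0.14 over the arrays left out. At an unadjusted p under 0.05 and 1.5-fold, the members numbered 0 to 1 over the arrays left out, the 1 being Neurod1 without MOTS-c replicate 2, and the count of all probes, 1239, ran from 1374 to 3264, with 3264 without MOTS-c replicate 2. It was 406 with normexp and 457 with the methods' t-test. At an unadjusted p alone, Nkx2-2 passed with normexp and Pdx1 and Mafa without the filter. Pdx1 and Pax6 passed with the trend and Mafa in the methods' t-test. Over all probes tested, 3112 of 35087 passed with normexp and 4633 of 56605 without the filter. With the trend 2945 of 35087 passed, and in the methods' t-test 2312 of 35087. The cause was not tested. No paired analysis was possible because the groups share only replicate number 2.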
